A study of Mus musculus with 32 samples.

Results

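The receptor chains, kinases, STAT proteins and interferon regulatory factors of the type I interferon pathway were followed through 9 named genes: Ifnar1 and Ifnar2, Jak1 and Tyk2, Stat2, and Irf9, Irf1, Irf3 and Irf7. They were taken by name from the 21829 mouse genes of the deposited table, and all 9 were present and passed the filter on low counts. The cells were EL08-1D2, a mouse stromal line kept as 1 line in culture, either without azacitidine (16 libraries, replicate numbers 1 to 16) or with azacitidine (16 libraries, numbers 1 to 16). Azacitidine is a cytidine analogue that is built into nucleic acids and inhibits DNA methyltransferases. The labels used here give neither its dose nor its duration, nor whether each of the 16 libraries of a group is its own culture. A p-value here therefore reflects how much these libraries vary, and that variation may be technical. Each library was polyA RNA tagged with unique molecular identifiers (UMIs), short random tags that let copies of 1 captured molecule be counted once.

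Type I interferons bind a receptor of 2 chains, IFNAR1 and IFNAR2. The kinases TYK2, which is bound to IFNAR1, and JAK1, which is bound to IFNAR2, then phosphorylate STAT proteins. STAT2, a second STAT protein and the DNA-binding partner IRF9 form a complex that binds interferon-stimulated response elements (ISREs) in the promoters of antiviral genes. IRF3 is held in resting cells as a latent protein and is activated by phosphorylation after nucleic acids are sensed. IRF7 acts in the same way, but its gene is itself a target of the STAT2 and IRF9 complex, and IRF1, best known from the interferon gamma response, is induced through GAS elements that bind STAT dimers. DNA methyltransferase inhibitors are known in other cell types to raise interferon-stimulated genes.

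The 250 bases before the RefSeq start are shown for Stat2, Irf1 and Irf3, and for Irf7 the 193 of them that lie outside the gene as GENCODE bounds it, because Stat2 and Irf1 each hold a match to an element of the pathway and because Irf7 and Irf3, the 2 related factors that respond to nucleic acid sensing, differ in the number of CpG sites, the dinucleotide that DNA methyltransferases act on. The sequences are RefSeq's, from GRCm38.p6, and run 5′ to 3′ on the gene's own strand. Capitals mark the match to the element in Stat2 (chr10:128270248-128270497, plus strand) and Irf1 (chr11:53769764-53770013, plus strand), and the CpG sites in Irf7 (chr7:141266482-141266674, minus strand) and Irf3 (chr7:44997398-44997647, plus strand).
Stat2: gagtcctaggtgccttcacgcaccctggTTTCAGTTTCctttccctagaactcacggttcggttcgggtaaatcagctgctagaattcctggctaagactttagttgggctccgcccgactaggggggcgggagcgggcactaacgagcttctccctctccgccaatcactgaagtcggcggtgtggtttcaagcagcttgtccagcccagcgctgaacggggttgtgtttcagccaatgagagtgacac
Irf1: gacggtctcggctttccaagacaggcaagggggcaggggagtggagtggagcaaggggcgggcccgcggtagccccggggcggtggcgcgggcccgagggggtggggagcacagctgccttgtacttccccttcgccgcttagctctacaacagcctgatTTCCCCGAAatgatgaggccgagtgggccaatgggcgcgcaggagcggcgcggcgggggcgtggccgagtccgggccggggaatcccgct
Irf7: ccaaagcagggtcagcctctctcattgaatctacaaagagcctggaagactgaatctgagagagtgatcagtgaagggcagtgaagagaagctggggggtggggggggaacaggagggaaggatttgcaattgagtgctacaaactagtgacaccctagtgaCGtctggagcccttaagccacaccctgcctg
Irf3: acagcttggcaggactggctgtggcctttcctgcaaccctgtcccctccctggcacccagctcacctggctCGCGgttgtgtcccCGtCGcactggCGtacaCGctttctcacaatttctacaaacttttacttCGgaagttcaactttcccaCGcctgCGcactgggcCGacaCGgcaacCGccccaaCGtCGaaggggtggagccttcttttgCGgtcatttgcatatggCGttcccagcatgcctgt
The letter patterns searched, on both strands, were the ISRE core GAAANNGAAA and the GAS core TTCNNNGAA, and among the 9 genes no match of one overlapped a match of the other. The Stat2 match, TTTCAGTTTC, is a match on the other strand, and its leftmost base lies 222 bases before the start. The Irf1 match, TTCCCCGAA, begins 90 bases before the start, and Ifnar2 holds a GAS match, TTCCTGGAA, that begins 214 bases before its start. Neither pattern had a match in the windows of Irf7, Irf9 (both starts), Irf3, Ifnar1, Jak1 or Tyk2, or in that of the other Irf1 start. Among 32851 promoters of the same length in the table, 2.98% held the ISRE pattern and 7.02% the GAS pattern. The Irf7 window of 250 bases held 3 CpG sites, 1 of them in the bases shown, against 16 in Irf3, 14 in Stat2, 11 in Ifnar2, and 19 each in Ifnar1, Jak1 and Tyk2. Irf1 had 2 listed starts with 25 and 35 sites, and Irf9 had 2 with 7 and 1, while the median over all promoters was 6 (quartiles 2 and 16). The RefSeq starts differ from the GENCODE bounds in places: 57 bases of the Irf7 window and 59 of the Jak1 window lie inside the GENCODE gene, as do both Irf9 windows and the one of the other Irf1 start in full. DNA methylation was not measured in these libraries, and a match describes letters only.

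Library totals ran from 818619 to 3210801 UMIs without azacitidine and from 1226861 to 5039721 with it, and the 9 genes together took 0.0573% of all UMIs. Of 9344 genes tested with edgeR, 3.65% rose and 2.0% fell with azacitidine, and the median log2 fold change over all of them was 0.00 (quartiles -0.09 and 0.10). After the group means were removed, libraries with nearby replicate numbers resembled each other: the mean correlation of deviations was 0.34 within and -0.16 between the runs 1 to 4, 5 to 8, 9 to 12 and 13 to 16 with azacitidine, and 0.08 and -0.10 without. The labels do not say what these runs are. On the leading component of the deviations 5 libraries were separate from the other 27: untreated numbers 1 and 2, and treated numbers 1, 2 and 4. They were among the deepest of their groups, with 3210801 and 2455232 UMIs untreated and 5039721, 4458343 and 4015944 treated. Untreated number 10 (2489108 UMIs) and treated number 7 (4218313) were of like depth and did not stand apart. The part of depth in this separation was not tested. Results that rest on these 5 libraries are given with and without them, except where a run would keep too few libraries. The stromal markers Col1a1, Col1a2 and Col3a1 were at 1040, 2060 and 4460 CPM (UMIs scaled to the library total, after TMM) without azacitidine and fell with it, by 0.37, 0.39 and 0.65 on the log2 scale (edgeR adjusted p = 0.0014, 0.001 and 6.2e-09). The haematopoietic marker Ptprc had 1 UMI in all libraries without azacitidine and 4 in all with it. Coro1a, the other leukocyte marker with a row, had 64 and 75, which is 2.5 and 1.74 CPM.

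Azacitidine was accompanied by a rise of 3 of the 9 genes, Irf7, Irf9 and Stat2, and by no called change of the other 6. Irf7 rose 2.81-fold, Irf9 1.65-fold and Stat2 1.40-fold in edgeR's fit. The receptor chains, the kinases, Irf1 and Irf3 had log2 fold changes between -0.17 and 0.21, none of them past an adjusted p of 0.05. The 3 called genes of 9 stand against the 3.65% of all tested genes that rose, and no member fell, against 2.0% of all. The median log2 fold change of the 9 was 0.18 (quartiles -0.02 and 0.48).

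**Figure D1:**
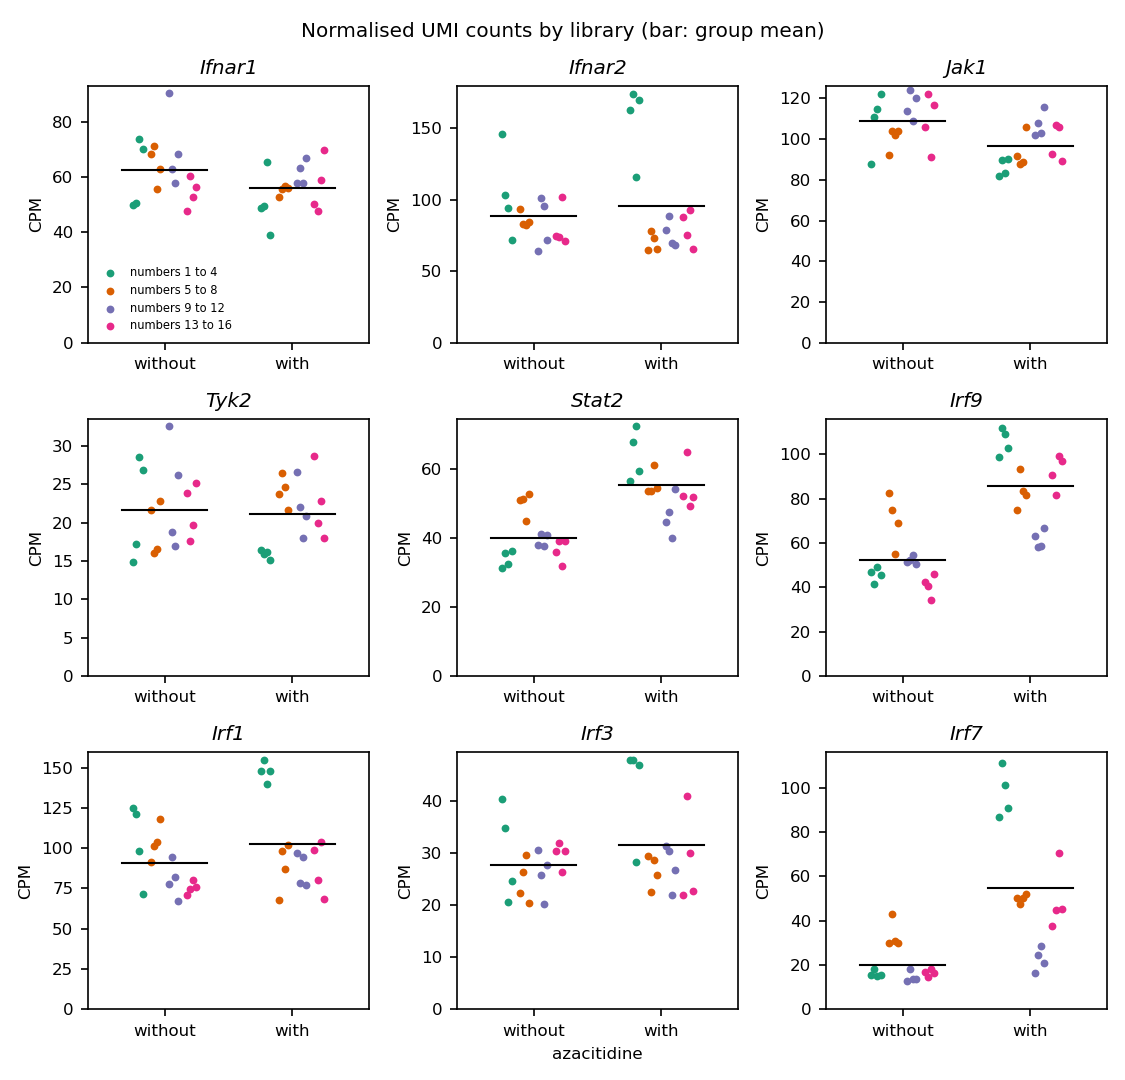
CPM of each of the 9 genes (y axis, linear) in the untreated and the azacitidine group of 16 libraries each (x axis), 1 point per library, coloured by run of 4 replicate numbers, with a bar at the group mean. Irf7, Irf9 and Stat2 were higher with azacitidine, while the other 6 genes overlapped over most of their range.

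Ifnar1 (ENSMUSG00000022967, chr16:91485238-91507441, plus strand, mm10) encodes the receptor chain that holds TYK2. It was at 62.5 ± 11.1 CPM (SD, n = 16) without azacitidine, lowest 47.7, median 61.7 and highest 90.4, and at 56.0 ± 8.01 CPM (n = 16) with it, lowest 38.9, median 56.4 and highest 69.7. The groups overlapped, with 4 of the 16 azacitidine libraries above the median without. The log2 fold change was -0.16 (SE 0.08, edgeR adjusted p = 0.32). Ifnar2 (ENSMUSG00000022971, chr16:91372783-91405589, plus strand) encodes the other chain, which holds JAK1. Its levels were 88.2 ± 19.8 CPM (lowest 64.1, median 83.7, highest 146) without and 95.7 ± 38.6 CPM (lowest 64.5, median 78.5, highest 174) with azacitidine.

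Ifnar2 had the wider spread of the 2 chains, and its log2 fold change was 0.13 (SE 0.15, adjusted p = 0.74 in edgeR). The 3 azacitidine libraries that stood apart held 169 CPM on average (range 163 to 174), and the other 13 held 78.8 CPM (64.5 to 116). The same order was seen without azacitidine, at 124 CPM in the 2 that stood apart and 83.1 CPM in the other 14. With the 5 libraries left out, an alternative chosen after seeing the data, the Ifnar2 difference was -0.08 (adjusted p = 0.66). Ifnar1 was lower, not higher, in the libraries that stood apart, at 45.7 against 58.4 CPM with azacitidine and 50.2 against 64.2 CPM without. The part of these libraries in the Ifnar2 spread beyond these values was not tested.

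Jak1 (ENSMUSG00000028530, chr4:101152367-101265282, minus strand), the kinase that also serves the interferon gamma receptor and many cytokine receptors, was at 109 ± 11.4 CPM (lowest 87.7, median 110, highest 124) without azacitidine. With azacitidine it was at 96.5 ± 10.2 CPM (lowest 81.7, median 92.3, highest 116). Only 1 of the 16 azacitidine libraries lay above the median without, and 2 lay below its lowest. The log2 fold change of -0.17 (SE 0.06) had an unadjusted p of 0.00396 and an adjusted p of 0.063 in edgeR, so it was not called. With the run as a term in the fit the adjusted p was 0.017 and Jak1 was called as lower, where 4.6% of all tested genes were. With the same term fitted on sums over runs Jak1 was not called (-0.16, adjusted p = 0.23). With scaling to the spike-ins, which moved the median of all genes by 0.31, the Jak1 difference was 0.12 (adjusted p = 0.60), below that median.

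Tyk2 (ENSMUSG00000032175, chr9:21104068-21131243, minus strand) was at 21.6 ± 5.22 CPM (lowest 14.8, median 20.6, highest 32.6) without and 21.1 ± 4.26 CPM (lowest 15.1, median 21.2, highest 28.7) with azacitidine. The groups covered nearly the same range, and the log2 fold change was -0.02 (SE 0.11, adjusted p = 0.98 in edgeR). Without azacitidine a library held between 23 and 46 Tyk2 UMIs, for which counting alone gives a coefficient of variation of 17.4%, beside the 24.2% seen. With azacitidine a library held between 23 and 104, and counting alone gives 15.6%, beside the 20.2% seen.

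Stat2 (ENSMUSG00000040033, chr10:128270559-128292849, plus strand), the STAT protein that carries the activating domain of the complex, was at 39.9 ± 6.83 CPM (lowest 31.3, median 38.4, highest 52.7) without azacitidine and 55.2 ± 8.40 CPM (lowest 40.0, median 53.9, highest 72.3) with it. All 16 azacitidine libraries were above the median without, and 10 were above its highest library. The log2 fold change was 0.48 (SE 0.08, adjusted p = 7.2e-05 in edgeR, n = 16 and 16).

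Irf9 (ENSMUSG00000002325, chr14:55603571-55610030, plus strand), the partner that gives the complex its DNA binding, was at 52.3 ± 13.0 CPM (lowest 34.1, median 49.7, highest 82.7) without and 85.8 ± 17.5 CPM (lowest 58.1, median 87.0, highest 112) with azacitidine. All 16 azacitidine libraries were above the median without, and 9 were above its highest. The log2 fold change was 0.72 (SE 0.11, adjusted p = 9.9e-06 in edgeR). In the GENCODE annotation the first 123 bases of Irf9 overlap the end of Rnf31 on the same strand. Rnf31, a ubiquitin ligase gene, rose from 21.5 ± 3.09 to 28.7 ± 4.85 CPM (log2 fold change 0.41, SE 0.08, adjusted p = 0.00092), and how the overlapping reads were assigned is not given in the sources used here.

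Irf7 (ENSMUSG00000025498, chr7:141262706-141266481, minus strand) showed the largest fold change of the 9. It was at 20.1 ± 8.58 CPM (lowest 12.6, median 16.6, highest 42.9) without azacitidine and 54.9 ± 29.2 CPM (lowest 16.4, median 48.7, highest 111) with it. In 11 azacitidine libraries Irf7 was above the highest library without, and in 15 it was above the median without. The log2 fold change was 1.49 (SE 0.24, adjusted p = 4.9e-05 in edgeR). Irf7 also had the largest coefficient of variation within both groups, 42.8% without and 53.1% with azacitidine, where counting alone gives 18.1% and 9.65%. None of the 9 genes had groups that did not overlap, a separation that 0.278% of all tested genes showed in the higher direction.

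Irf1 (ENSMUSG00000018899, chr11:53770014-53778374, plus strand) was at 90.8 ± 18.8 CPM (lowest 67.0, median 86.6, highest 125) without and 103 ± 29.2 CPM (lowest 67.6, median 97.6, highest 155) with azacitidine. The groups overlapped, with 4 azacitidine libraries above the highest without, and the log2 fold change was 0.18 (SE 0.12, adjusted p = 0.47 in edgeR). As for Ifnar2, the libraries that stood apart were the high ones, at 150 against 91.8 CPM with azacitidine and 123 against 86.2 CPM without. Irf3 (ENSMUSG00000003184, chr7:44997648-45002848, plus strand) was at 27.6 ± 5.56 CPM (lowest 20.1, median 27.0, highest 40.3) without and 31.4 ± 9.24 CPM (lowest 22.0, median 29.0, highest 47.9) with azacitidine. Its log2 fold change was 0.21 (SE 0.12, adjusted p = 0.39 in edgeR), and its libraries that stood apart were at 47.5 against 27.7 CPM with azacitidine and 37.6 against 26.2 CPM without. With the 5 libraries left out the differences were 0.09 for Irf1 and 0.10 for Irf3.

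Irf7, Irf9 and Stat2 were also higher in the azacitidine libraries that stood apart, but not in those without azacitidine. Irf7 was at 96.4 against 45.3 CPM with azacitidine and at 16.7 against 20.5 CPM without. For these genes high levels were not confined to the libraries that stood apart. Azacitidine library number 3, of the same run but not among them, held 101 CPM of Irf7, 109 of Irf9 and 72.3 of Stat2. The 3 genes were called without the 5 libraries as well, where 3.96% of all tested genes rose: the log2 fold change of Irf7 was 1.17 (adjusted p = 0.0031 in edgeR), that of Irf9 0.61 (0.00065) and that of Stat2 0.41 (0.0014).

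The size of the response differed between the runs of 4 replicate numbers. These runs were chosen after earlier results of the same libraries showed their likeness, so the p-values below are not independent of that choice. An interaction term for run by azacitidine, tested with edgeR over all genes, was past the threshold for 3.02% of them, and of the members it called Irf7 (adjusted p = 1.2e-07), Irf9 (8.9e-07) and Stat2 (0.0064). In the other 6 members the adjusted p lay between 0.089 for Ifnar2 and 0.76 for Ifnar1. Without the 5 libraries that stood apart, the same test called 2.62% of genes and the adjusted p was 1.6e-05 for Irf7, 1.9e-05 for Irf9 and 0.040 for Stat2.

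Irf7 went from 15.9 to 97.6 CPM in numbers 1 to 4, a log2 fold change of 2.60 (SE 0.13, adjusted p = 9.7e-07 in edgeR on these 4 and 4 libraries). In numbers 13 to 16 it went from 16.4 to 49.6 CPM (1.64, SE 0.20, adjusted p = 2.8e-06). The rise was smaller in numbers 5 to 8, from 33.4 to 49.9 CPM (0.58, SE 0.13, adjusted p = 0.0053). In numbers 9 to 12 it was not called, at 14.6 against 22.6 CPM (0.60, SE 0.21, adjusted p = 0.22). The 4 libraries without azacitidine numbered 5 to 8 held the highest mean Irf7 level of the 4 untreated runs, and numbers 9 to 12 held the lowest level with azacitidine.

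Irf9 and Stat2 also had their larger differences in numbers 1 to 4 and 13 to 16. Irf9 went from 45.8 to 106 CPM in numbers 1 to 4 (log2 fold change 1.20, adjusted p = 2.1e-05 in edgeR) and from 40.8 to 92.2 CPM in numbers 13 to 16 (1.19, adjusted p = 7.1e-08). It was at 70.5 and 83.4 CPM in numbers 5 to 8 (0.24, adjusted p = 0.25) and at 52.2 and 61.7 CPM in numbers 9 to 12 (0.24, adjusted p = 0.49). Stat2 went from 33.9 to 63.9 CPM in numbers 1 to 4 (0.92, adjusted p = 0.0011) and from 36.4 to 54.4 CPM in numbers 13 to 16 (0.59, adjusted p = 0.0083). It was at 49.9 and 55.6 CPM in numbers 5 to 8 (0.17, adjusted p = 0.45) and at 39.3 and 46.6 CPM in numbers 9 to 12 (0.24, adjusted p = 0.57). Like Irf7, both had their highest untreated mean in numbers 5 to 8.

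Run by run, 3 members were called as higher in numbers 1 to 4, where 1.96% of all tested genes were, 1 in numbers 5 to 8 (3.25% of all), none in numbers 9 to 12 (1.04% of all) and 3 in numbers 13 to 16 (2.26% of all). Irf7, Irf9, Stat2 and Irf3 had a log2 fold change above 0 in each of the 4 runs, as did 10.8% of all tested genes. Irf3 ranged from 0.01 to 0.47 over the runs, none of them called. Irf1 was at 0.48 in numbers 1 to 4 and -0.22 in numbers 5 to 8, and Ifnar2 at 0.56 and -0.28 in the same runs, again with no call. Jak1 lay below 0 in each run, between -0.33 and -0.11, and Tyk2 between -0.38 and 0.34.

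**Figure D2:**
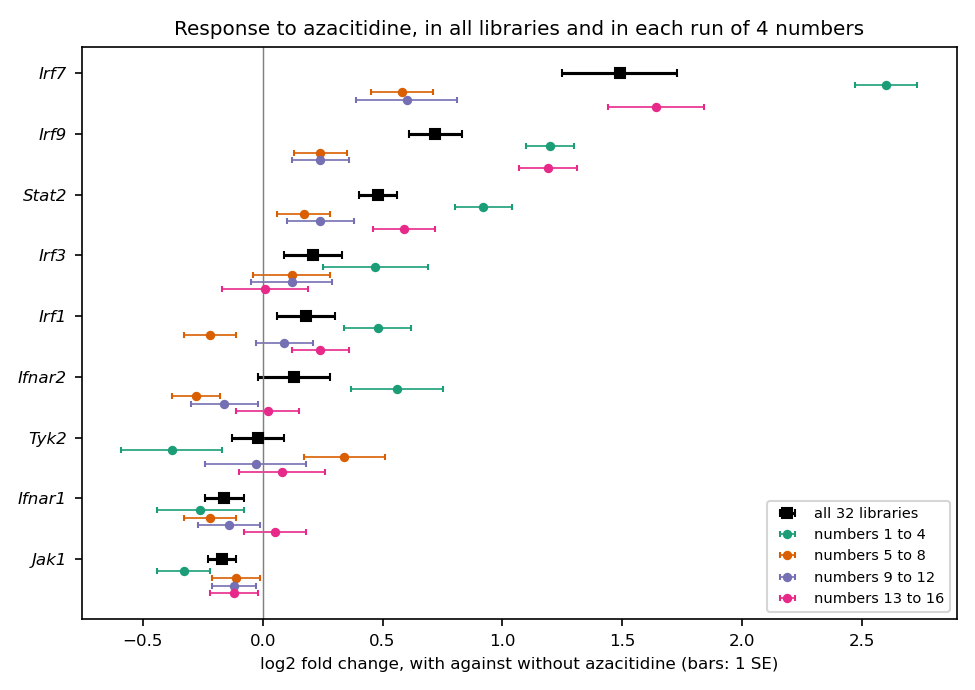
Log2 fold change with against without azacitidine (x axis) of each of the 9 genes (y axis) over all 32 libraries and in each run of 4 replicate numbers, with bars of 1 SE. Irf7, Irf9 and Stat2 lay farthest to the right in numbers 1 to 4 and 13 to 16, and no receptor chain or kinase was called in any run.

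If each run is counted as 1 sample of each group, the design has 4 summed libraries against 4. No member was then called, where 0.855% of all tested genes rose: the edgeR adjusted p was 0.29 for Stat2, 0.24 for Irf9 and 0.31 for Irf7, with log2 fold changes of 0.48, 0.71 and 1.46. With the run as a term in the fit of the sums, Stat2 was called (adjusted p = 0.042) and Irf9 (0.27) and Irf7 (0.31) were not, where 2.56% of all tested genes rose.

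The members were compared with each other through 9 ratios taken within each library, as the log2 of the UMIs of 1 gene over those of another, with 0.5 UMI added to both. Such a ratio does not depend on the scaling of the library, and its change between groups was tested with a two-sided permutation test of 100000 resamples, adjusted over the 9 ratios. It says nothing of which of 2 genes has more transcripts. With azacitidine 6 of the 9 ratios changed. Each of the 6 has Irf7, Irf9 or Stat2 as its numerator, and the rest hold only genes that were not called. The ratios use the same counts as those calls, so they are no separate evidence of them. Irf9/Stat2 and Irf7/Irf9 compare called genes with each other.

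Within the complex, Irf9 rose more than Stat2: the log2 ratio Irf9/Stat2 went from 0.37 ± 0.18 (SD, n = 16) to 0.62 ± 0.22 (n = 16), a difference of 0.25 (SE 0.07, permutation adjusted p = 0.0031). The ratio was above the median without azacitidine in 14 of 16 libraries, and the differences by run were 0.30, 0.10, 0.01 and 0.60 in the order of the numbers. Against the chain and kinase upstream, Stat2/Ifnar1 differed by 0.62 (SE 0.11) and Stat2/Jak1 by 0.64 (SE 0.11), each with a permutation p of 2e-05, the smallest that the resamples can give, and an adjusted p of 9e-05. Both ratios were above the median without azacitidine in all 16 azacitidine libraries and above its highest in 10.

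Among the IRF genes, Irf7/Irf3 went from -0.52 ± 0.64 to 0.65 ± 0.70, a difference of 1.17 (SE 0.24, permutation adjusted p = 0.00027, n = 16 and 16). Irf7/Irf1 differed by 1.18 (SE 0.19, permutation adjusted p = 0.00012), from -2.23 ± 0.45 to -1.05 ± 0.61. For both, 11 azacitidine libraries lay above the highest without and 15 above its median. Irf7 also rose against Irf9, by 0.61 (SE 0.17, permutation adjusted p = 0.0024), with differences by run of 1.39, 0.34, 0.36 and 0.37. Without numbers 1 to 4 the Irf7/Irf9 difference was 0.36 and was not called (permutation adjusted p = 0.077).

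The remaining 3 ratios were not called. Irf1/Irf3 was 1.70 in both groups, a difference of 0.00 (SE 0.13, permutation adjusted p = 0.98). Ifnar2/Ifnar1 differed by 0.21 (SE 0.20, permutation adjusted p = 0.34), with 0.89 in numbers 1 to 4 and between -0.07 and 0.06 in the other runs. Tyk2/Jak1 differed by 0.14 (SE 0.11, permutation adjusted p = 0.23). With the libraries summed by run none of the 9 ratios was called. The smallest p that 4 sums against 4 allow is 0.0286. The 6 ratios called above had exact permutation p between 0.057 and 0.14, above that floor, and adjusted p between 0.13 and 0.18.

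**Figure D3:**
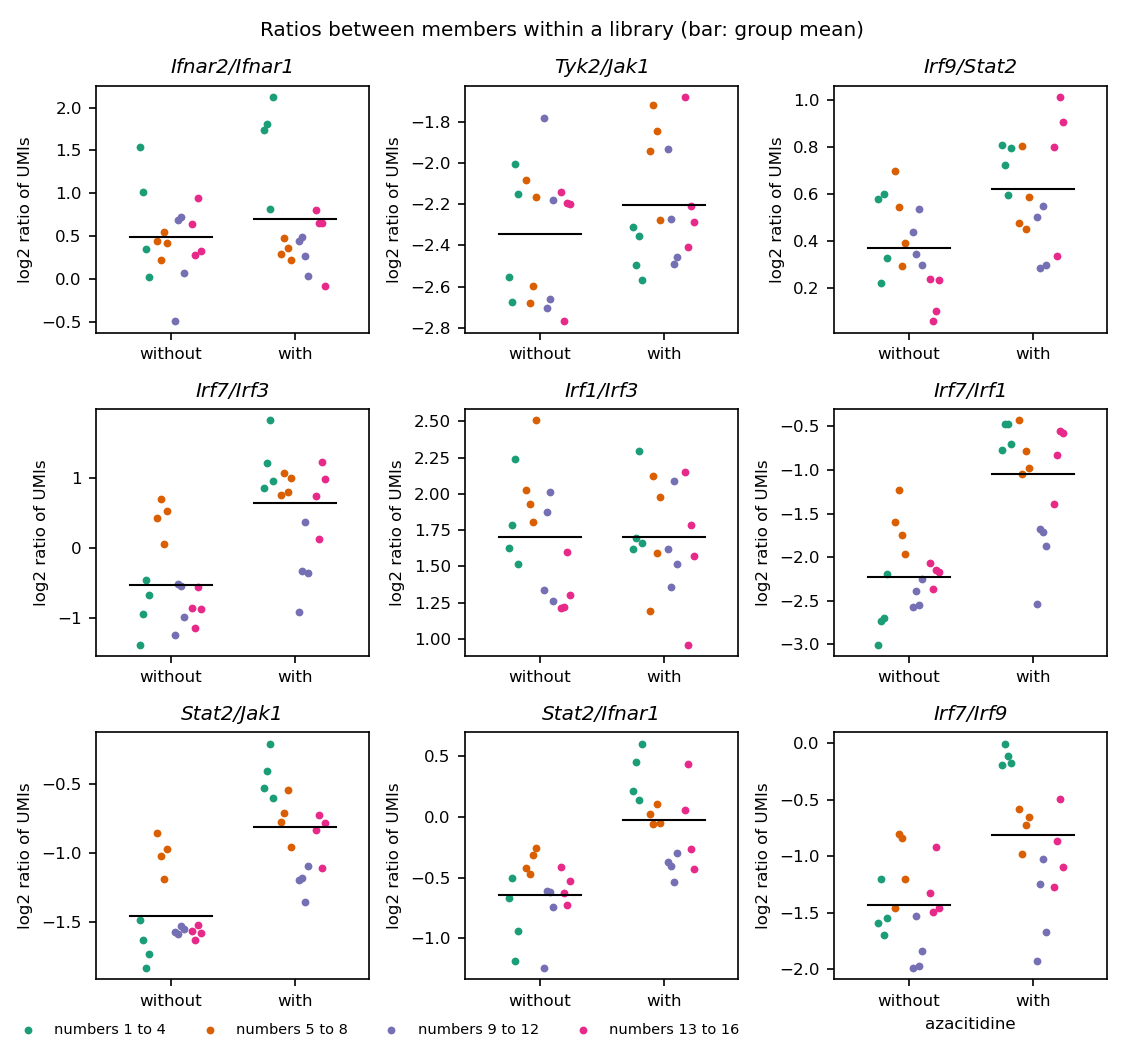
Log2 ratio of UMIs between pairs of the 9 genes (y axis) in the untreated and the azacitidine group of 16 libraries each (x axis), 1 point per library, coloured by run of 4 replicate numbers, with a bar at the group mean. Irf7 rose against Irf3, Irf1 and Irf9, and Stat2 rose against Jak1 and Ifnar1, while Irf1/Irf3 had the same mean in both groups.

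The ligands of the receptor were scarcely seen. Of 18 type I interferon genes listed, 3 had a row and none passed the filter. Ifnb1, the interferon beta gene, had 0 UMIs in all libraries without azacitidine, which allows up to 3 UMIs in 27338586 or 0.110 CPM, and 2 UMIs with it. Ifnz had 13 and 19 UMIs (0.469 and 0.51 CPM), and Ifne 1 and 0. The 3 listed interferon gamma and lambda genes, Ifng, Ifnl2 and Ifnl3, had no row and so were not analysed here. The floor covers counting error only.

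Relatives of the members showed no call. Ifngr1 and Ifngr2, the chains of the interferon gamma receptor, had log2 fold changes of -0.10 and 0.07, and Il10rb, shared with the lambda receptor, 0.02. Jak3 was at 0.01, and Jak2 did not pass the filter, with 55 UMIs without and 100 with azacitidine (2.13 and 2.77 CPM). Of 4 other STAT genes counted and tested, Stat3 was at -0.03, Stat6 at -0.01, Stat5a at 0.05 and Stat5b at 0.07, and Stat4 held 2 UMIs in all. Irf2, a repressor of IRF1 targets, was at 0.07, while Irf4 and Irf5 did not pass the filter, at 2 and 31 UMIs without azacitidine. Of the IRF2-binding partners Irf2bp2 and Irf2bpl, none was called either.

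Of 12 tested inhibitors of the pathway 1 rose and none fell, where 3.65% of all tested genes rose and 2.0% fell, and the median of their log2 fold changes was -0.02. The gene that rose was Usp18, whose protein removes ISG15 from other proteins and blocks JAK1 at IFNAR2. It went from 22.8 ± 9.44 to 69.4 ± 25.6 CPM (log2 fold change 1.65, SE 0.19, adjusted p = 8.7e-08 in edgeR). In the fit of sums over runs with a run term its adjusted p was 0.26. Socs1 and Socs3, feedback inhibitors of the kinases, were at 0.10 and -0.05. Among 11 tested genes that lead to IRF3 and IRF7 activation 1 fell, beside the 2.0% of all genes, with a median of 0.03. This was Irak4, a kinase of Toll-like receptor signalling, at 17.5 ± 4.28 and 13.2 ± 2.83 CPM (-0.38, SE 0.11, adjusted p = 0.040), a call that was lost without the 5 libraries that stood apart (0.06). Tbk1, the kinase that phosphorylates IRF3, was at 0.19 and Tmem173, which encodes STING, at 0.03.

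Downstream, 13 of 14 tested genes listed as ISRE targets rose, where 3.65% of all tested genes did. The median over the 14 was 1.31 on the log2 scale, beside 0.00 for all tested genes. The 13 were Ifi44, Cxcl10, Ifit1, Isg15, Ifit3, Rtp4, Oasl2, Ifit2, Xaf1, Bst2, Ifitm3, Ifi27 and Ifi35, from 2.06 for Ifi44 down to 0.61 for Ifi35. Ifit1, which binds viral RNA, went from 43.3 to 148 CPM, and Isg15, a ubiquitin-like modifier, from 8.79 to 28.1 CPM. Eif2ak2, the kinase PKR, was not called (0.33, SE 0.12, adjusted p = 0.12 in edgeR). Of 8 tested genes listed for interferon gamma 7 rose, with a median of 1.08: Gbp3, Iigp1, Irgm1, Gbp2, Irgm2, Gbp7 and Igtp, which encode interferon-induced GTPases, from 1.48 for Gbp3 to 0.92 for Igtp. Socs1, counted among the inhibitors too, was the other. The filter on low counts can be passed through 1 group alone. Ifi44, Bst2 and Ifit2 were at 3.32, 4.32 and 5.31 CPM without azacitidine and 13.1, 7.71 and 12.4 CPM with it. Iigp1 and Gbp7 were at 4.65 and 4.93 CPM without and 10.9 and 9.47 CPM with it. Where a gene passed through the group in which it is high, these counts and medians favour a rise. How many did so was not tested. Without the 5 libraries that stood apart, 12 of the 14 ISRE targets passed the filter and 11 were called. Of the 8 interferon gamma targets 7 passed it and 6 were called, where 3.96% of all tested genes rose. Run by run, in the order of the numbers, 12 of 14, 5 of 14, 5 of 12 and 12 of 13 tested ISRE targets were called as higher. For the interferon gamma targets these counts were 7 of 8, 0 of 8, 1 of 6 and 7 of 8. The shares of all tested genes were 1.96%, 3.25%, 1.04% and 2.26% in the same order. With libraries summed by run none of either list was called, where 0.855% of all tested genes rose. With a run term in the fit of the sums 3 of each list were called, where 2.56% of all rose. In a fit without the filter, in which 3.29% of all genes rose, so did 6 of the 6 ISRE targets and 3 of the 6 interferon gamma targets that had not passed it. These lists were drawn up with earlier results of the same libraries known, so their direction is no independent evidence.

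**Figure D4:**
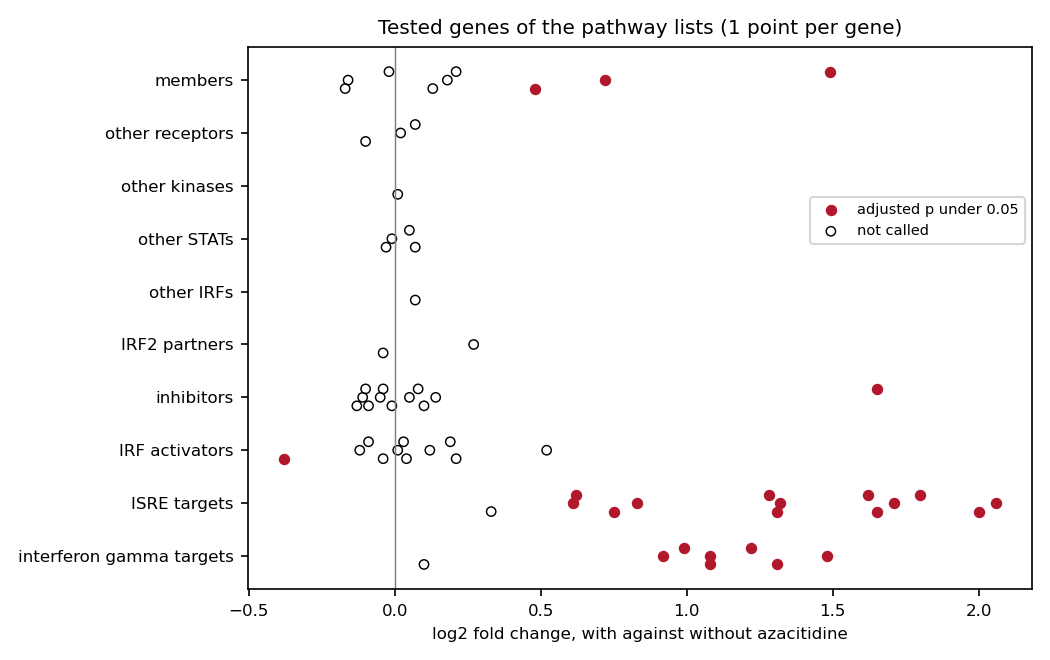
Log2 fold change with against without azacitidine (x axis) of each tested gene, 1 point per gene, for the 9 members and the pathway lists (y axis), filled where the edgeR adjusted p was under 0.05. The points of receptors, kinases and STAT and IRF relatives lay near 0, while 13 of 14 ISRE targets and 7 of 8 interferon gamma targets were filled and to the right. Of all tested genes 3.65% rose. Some of the targets may have passed the filter through the azacitidine group alone.

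The genes whose level moved most like Irf7 from library to library, once the group means were removed, were Xaf1 (Pearson r = 0.92), Irgm1 (0.91), Isg15 (0.87), Ifit3 (0.87) and Rtp4 (0.87). For Irf9 they were Apol9a (0.88), Ifit1 (0.88), Ifit3 (0.88), Usp18 (0.87) and Rtp4 (0.86), and for Stat2 they were Irf9 (0.78), Apol9b (0.77), H2-D1 (0.75), Usp18 (0.74) and Ifit1 (0.74). Each r describes 32 libraries searched over 9342 genes, and libraries of a run share what sets the run apart. Among the members, Irf7 was nearest to Irf9 (r = 0.78), Stat2 (0.70) and Irf1 (0.62), and it ran opposite to Jak1 (-0.54) and Tyk2 (-0.48).

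Markers of other cell types were summed to see whether they moved beside the members. The 4 T and NK cell markers summed to 0 CPM in every library without azacitidine and to at most 0.667 CPM with it, and the leukocyte markers to between 0.856 and 3.84 CPM without and between 0 and 3.64 CPM with azacitidine. The 5 macrophage markers summed to 8.94 to 22.8 CPM without and 12.7 to 33.2 CPM with azacitidine. Of these only Cd68 was tested, and it rose from 8.12 to 16.0 CPM (log2 fold change 0.99, adjusted p = 3e-05 in edgeR). Itgam held 143 UMIs without and 161 with azacitidine (5.63 and 4.47 CPM), and Csf1r 26 and 45 (0.842 and 1.24 CPM). Lyz2 held 14 and 12 (0.546 and 0.283 CPM), and the defining gene Adgre1 0 and 1. The UMI sums are not scaled for library totals, and the CPM values are. The 9 stromal markers summed to 10100 to 14800 CPM without and 7750 to 13800 CPM with azacitidine. Of the 8 tested, the 3 collagens fell (none was called as lower with spike-in scaling), Lum rose (2.36, adjusted p = 3e-08 in edgeR) and Vim, Sparc, Pdgfra and Pdgfrb were not called. Thy1, also on the stromal list, did not pass the filter, with 0 UMIs without azacitidine and 26 with it. In the edgeR fit without the filter Thy1 rose (3.58, adjusted p = 0.0003), where 3.29% of all genes did. Plasmacytoid dendritic cell markers summed to 53.5 to 86.4 CPM without and 58.6 to 98.5 CPM with azacitidine, a sum carried by Tcf4, which is not confined to those cells and was at 62.4 and 71.3 CPM. Of 2 tested Bst2, which is also on the ISRE list, rose and Tcf4 (log2 fold change 0.20) was not called. The part of these markers in the rise of Irf7, Irf9 and Stat2 was not tested. Krt8 and Krt18, which are epithelial keratins, rose with azacitidine, to a sum of 60.2 to 130 CPM for the 4 epithelial markers against 1.46 to 6.21 CPM without. Epcam held 0 UMIs without and 1 with, and Cdh1 4 and 10 (0.139 and 0.219 CPM). The endothelial markers summed to 0 to 1.05 CPM without and 0 to 2.23 CPM with azacitidine. Of these Pecam1 held 2 and 6 UMIs and Cdh5 1 and 8, and none passed the filter. In bulk libraries fewer cells of a kind and less RNA per cell cannot be told apart.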

How the data were processed

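The authors deposited 1 table of UMI counts per gene for 32 libraries, whole numbers that were not normalized. Alignment involved STAR 2.4.0, bedtools 2.17.0 and the mm10 build, per the submitters' processing notes, and how UMIs were collapsed and whether strand was used is not given in the sources used here. Of 21897 lines, 68 were spike-ins (0.106% of UMIs) and stayed out of totals and tests. Symbols and positions came from GENCODE M21 (GRCm38, the same assembly as mm10) and promoters from RefSeq (GRCm38.p6).

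Counts were fitted with edgeR 4.0.16 in R 4.3.3 (robust quasi-likelihood, TMM, filterByExpr by group, which kept 9344 genes with 98.8% of UMIs). P-values are two-sided and Benjamini-Hochberg adjusted over all tested genes, with calls at 0.05, and CPM uses TMM library sizes. The scripts were tested on simulated data. The 9 ratios used scipy 1.17.1. DESeq2 1.42.0 and limma 3.58.1 (voom) were alternatives, as were other scalings, filters, thinning, a replicate block, a run term, sums over runs, runs alone and libraries left out. Named were all members, every called gene of a pathway list (otherwise the 2 with most UMIs) and the 5 genes most like Irf7, Stat2 and Irf9. Other genes were named as examples after their values were seen. The members and lists were chosen with earlier results of these data known. Some genes of the lists are not reported here. Of the member kinases, counting error limits Tyk2, at 23 to 104 UMIs per library, more than Jak1.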

Additional observations from a re-analysis of the deposited data

Results flagged for a closer look

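The azacitidine response of 3 members differed between the runs of 4 replicate numbers, by an edgeR test of a run by azacitidine term over all genes: Irf7 (adjusted p = 1.2e-07), Irf9 (8.9e-07) and Stat2 (0.0064). The log2 fold changes in numbers 1 to 4, 5 to 8, 9 to 12 and 13 to 16 were 2.60, 0.58, 0.60 and 1.64 for Irf7, 1.20, 0.24, 0.24 and 1.19 for Irf9, and 0.92, 0.17, 0.24 and 0.59 for Stat2. The runs were defined by replicate numbers, not by a condition in the labels. They were chosen because earlier results of these same libraries showed that libraries of a run resemble each other. The p-values of the run by azacitidine term are therefore not independent of that choice. The untreated libraries of numbers 5 to 8 had the highest mean of each of the 3 genes. What the runs stand for was not tested.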

How the results depend on the processing

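Stat2, Irf9 and Irf7 kept their direction in all 19 alternatives. They were called in 16, 15 and 16 of them, with adjusted p up to 0.57, 0.49 and 0.31, and the exceptions were sums over runs (0 members called), the same with a run term (1), numbers 5 to 8 alone (1) and numbers 9 to 12 alone (0). In all genes 528 were called, against 897 with the replicate block, 860 without a filter, 244 after thinning to the lowest total, 993 with a run term, 108 with sums over runs, 267 in numbers 1 to 4 alone and 117 in numbers 9 to 12 alone. Scaling to the spike-ins moved the split from 341 higher and 187 lower to 354 and 1. No ratio was called with sums over runs (0 of 9). These allow no p under 0.0286, and the 6 ratios called over all libraries had exact permutation p between 0.057 and 0.14, above that floor.

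The labels do not say that same-numbered libraries were paired. The correlation of their deviations was over 0.1 in 12 of 16 pairs, from -0.29 to 0.83, and 4 of 16 untreated libraries were closest to their own number. With the replicate block Jak1 was called as lower (-0.17, adjusted p = 0.024), but not with sums over runs (0.97, or 0.23 with a run term), and Stat2, Irf9 and Irf7 stayed called.

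Directions of uncalled members changed as follows. With spike-in scaling Ifnar1 was at 0.16, Jak1 at 0.12 and Tyk2 at 0.32, and in numbers 13 to 16 alone Ifnar1 was at 0.05 and Tyk2 at 0.08. Without numbers 1 to 4 Ifnar2 was at -0.14 and Tyk2 at 0.13. In numbers 5 to 8 alone Ifnar2 was at -0.28, Irf1 at -0.22 and Tyk2 at 0.34, and in numbers 9 to 12 alone Ifnar2 was at -0.16. Tyk2 was at 0.14 after thinning, 0.01 without the lowest library of each group, 0.04 with sums over runs, 0.02 with a run term added and 0.03 without the 5 libraries, where Ifnar2 was at -0.08. Ifnar2/Ifnar1 was at -0.02 without numbers 1 to 4, and Irf1/Irf3 at 0.01 with 2 UMIs added and at 0.01 without the 5 libraries. Tyk2/Jak1 was called after thinning (0.29, permutation adjusted p = 0.035), where Irf7/Irf9 was not (0.46, permutation adjusted p = 0.065). The cause was not tested.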

Other observations

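Of the listed interferon targets that did not pass the filter on low counts, 6 of 6 ISRE targets and 3 of 6 interferon gamma targets rose in an edgeR fit without the filter, where 3.29% of all genes did. Oasl1, of the oligoadenylate synthetase family, went from 19 to 326 UMIs summed over 16 libraries (0.746 ± 0.516 and 8.17 ± 2.66 CPM, log2 fold change 3.46, adjusted p = 4.9e-16). Mx1, an antiviral GTPase, went from 56 to 220 UMIs (1.32, adjusted p = 0.043). Nlrc5, an activator of MHC class I genes, went from 45 to 125 UMIs (0.98, adjusted p = 0.015). Ciita, the activator of MHC class II genes that responds to interferon gamma through STAT and IRF1 sites, held 1 UMI in each group. These genes were chosen after their values were seen.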
